A study of Homo sapiens with 9 samples.

Results

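The ERBB receptors and their ligands were measured in 3 stable lines of T47D cells, which are a widely used human line of luminal breast cancer. The 9 genes chosen were the receptors EGFR, ERBB2, ERBB3 and ERBB4 and the ligands TGFA, AREG, EREG, BTC and NRG1, out of 43395 genes on the array. All probes carrying these names were taken, 18 in all. T47D-PA6 cells carried a vector with the complete cDNA of the long noncoding RNA PTH-AS, T47D-PA5 cells carried a vector with an incomplete PTH-AS cDNA, and T47D-VC1 cells carried the empty vector. RNA of each line was hybridised to 3 single-color arrays, 9 in all. T47D-PA6 and T47D-PA5 are each 1 stable line, established by drug selection and kept for high expression of the insert, so a difference between lines may belong to the selected cells as well as to the insert. The labels do not say that the replicates were separate cultures, so p-values measure the spread between these samples, which may be technical.

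ERBB receptors are membrane tyrosine kinases that act in pairs. EGFR and ERBB4 bind ligand and carry an active kinase, ERBB2 has no known ligand and serves as the favored partner of the others, and ERBB3 binds neuregulins but has little kinase activity of its own. TGFA and AREG bind EGFR, EREG and BTC bind EGFR and ERBB4, and NRG1 binds ERBB3 and ERBB4. The ligands are made as membrane proteins and are released by ADAM proteases, and the receptors then signal through the RAS to ERK and the PI3 kinase to AKT routes. In luminal breast cells AREG is an estrogen-induced ligand, and amplified ERBB2 marks a separate class of breast tumors.

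Signals are quantile-normalized intensities, and the mean signals given are geometric means of 3 arrays with the SD on the log2 scale. Probes entered the test if the scanner software marked them as well above background on all 3 arrays of any line. This held for 26171 probes, and for 10 of the 18 ERBB probes, which stand for 6 of the 9 genes. Where a gene had several tested probes, the brightest one stands for it. Adjusted p-values are from limma unless another test is named. The identity of the cells was checked first. All 10 luminal markers (KRT8, KRT18, KRT19, EPCAM, CDH1, GATA3, FOXA1, ESR1, PGR and TFF1) were well above background on all 9 arrays. Of 9 markers of other cell types, 8 were on the array and 3 of these, COL3A1, KRT5 and PECAM1, were below that level on all 9 arrays. COL1A1 and PTPRC were well above background on all 9 arrays, VIM on 6, KRT14 on 3 and CDH2 on 2. The summed signal of the 8 was 338 to 420 on the 9 arrays, most of it from the COL1A1 probe, at 235 to 364. Signals of different probes do not rank abundance, so the sum only describes these probes. In bulk RNA, fewer expressing cells and less RNA per cell cannot be told apart.

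The arrays came from 3 slides and 2 scan runs. The earlier run scanned slide 1, with replicate 1 from all lines. In the later run, slide 2 carried only replicate 2 from T47D-VC1 and from T47D-PA5, and slide 3 carried the remaining 4 arrays, replicate 3 from these lines and the other T47D-PA6 arrays. Replicates 2 and 3 of a line differed by a median of 0.09 to 0.11 on the log2 scale, and replicate 1 differed from them by 0.21 to 0.27. AREG followed this division, and values within the slides are given for TGFA, AREG and the receptors.

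Of the 6 genes tested, TGFA rose in T47D-PA6 against either other line, and no other member passed the test in any comparison. These comparisons share arrays, so their values are given side by side. In T47D-PA6 over T47D-VC1 this was 1 of 6 genes, against 10.6% of all probes tested (4.43% higher and 6.12% lower). Their median log2 fold change was 0.16, and that of all probes tested was -0.05. In T47D-PA6 over T47D-PA5 it was again 1 of 6, against 9.91% of all probes (3.46% higher and 6.45% lower), with medians of 0.21 and -0.01. In T47D-PA5 over T47D-VC1 limma called 0 of 6, against 1.62% of all probes (1.29% higher and 0.332% lower), with medians of 0.02 and -0.03. There 0 of the 6 had an unadjusted p under 0.05, and the unpaired test named in the methods also called 0. The methods name that test for their statistics in general, and define changes on the arrays by fold change. With 6 genes, a count of 1 is not set apart from these backgrounds.

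**Figure D1:**
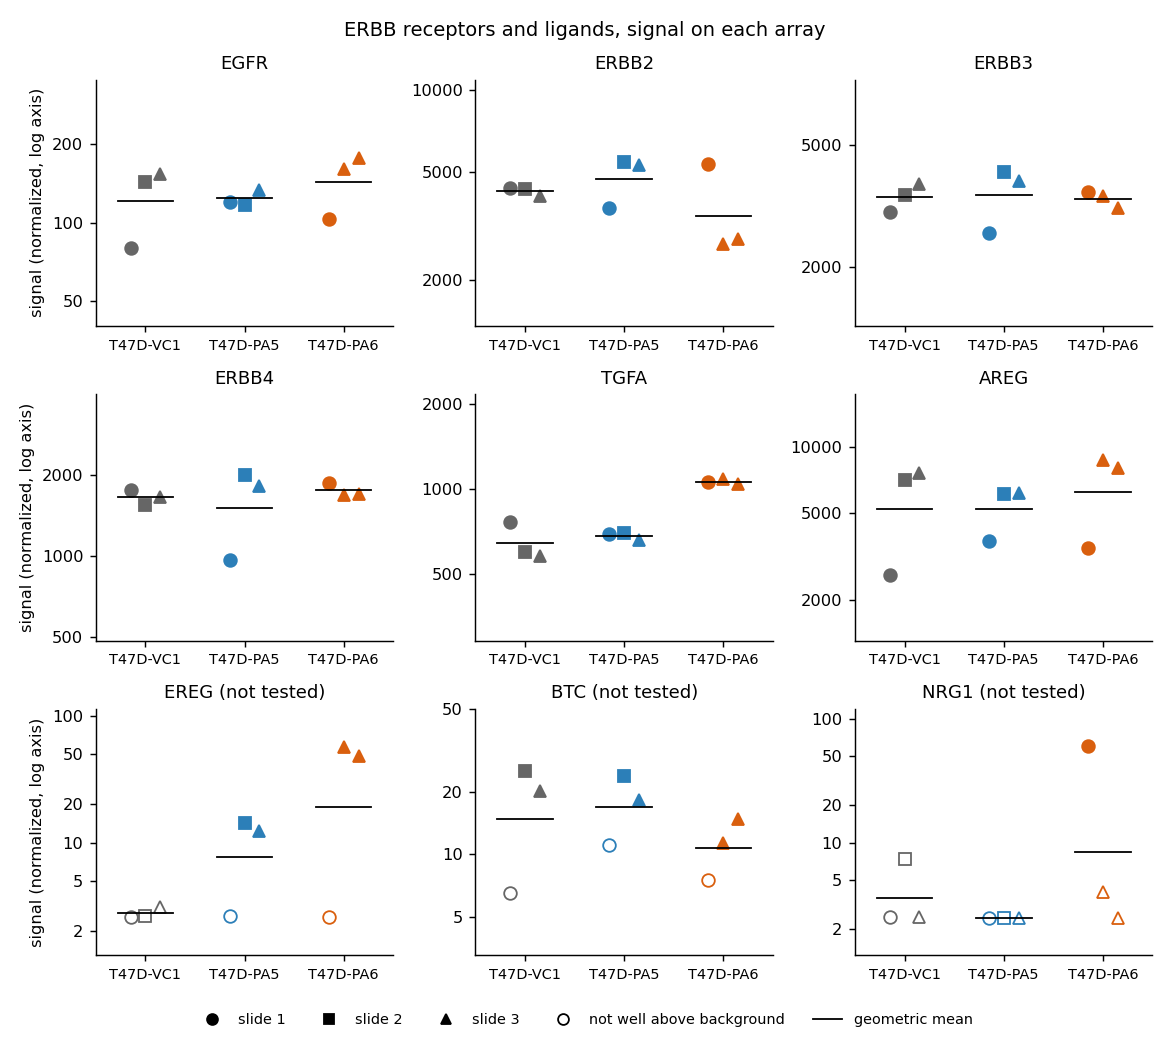
Signal of each ERBB gene on each array (log axis), with T47D-VC1 in gray, T47D-PA5 in blue and T47D-PA6 in orange; the shape gives the slide, an open symbol a spot not well above background, and the line the geometric mean of 3 arrays. The TGFA values of T47D-PA6, 1040 to 1080, lie above those of both other lines, and AREG is low on slide 1 in every line.

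TGFA, a ligand of EGFR, was read on chromosome 2 of hg19 from 70683472 to 70683531, on the minus strand. The probe is shown because the only call among these genes rests on it. It matches the part of the message that codes for the membrane-spanning segment of the TGFA precursor, it reads without a stop codon in 2 of its frames, and no base is marked.
TGFA probe: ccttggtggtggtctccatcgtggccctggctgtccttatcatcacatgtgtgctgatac
Its signal was 763, 595 and 580 in replicates 1 to 3 of T47D-VC1, 689, 695 and 656 in those of T47D-PA5, and 1060, 1080 and 1040 in those of T47D-PA6. All 3 T47D-PA6 arrays were above all 6 others, and the values of T47D-VC1 and T47D-PA5 overlapped. The mean signal of T47D-VC1 was 641 (SD 0.22, n = 3), that of T47D-PA5 was 680 (SD 0.05, n = 3) and that of T47D-PA6 was 1060 (SD 0.03, n = 3). T47D-PA6 was 1.65-fold higher than T47D-VC1 (95% interval 1.37 to 2.0), a log2 fold change of 0.73 with a standard error of 0.12 (adjusted p = 0.00872). Over T47D-PA5 the rise was 1.56-fold (95% interval 1.29 to 1.89, adjusted p = 0.0142). T47D-PA5 and T47D-VC1 did not differ beyond their spread, with a log2 fold change of 0.09 (adjusted p = 0.798).

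The rise of TGFA was present on both slides that held T47D-PA6. Over T47D-VC1 it was 0.48 on the log2 scale on slide 1 and 0.87 on slide 3, and with the slide as a block it was 0.73 (adjusted p = 0.0175). Over T47D-PA5 it was 0.62 on slide 1 and 0.69 on slide 3, and 0.65 with the slide as a block (adjusted p = 0.025). The call over T47D-VC1 passed without each array in turn, and did not pass by the unpaired test named in the methods, at an adjusted p of 0.0807 (from 0.00175 to 0.78 over 21 alternatives). The call over T47D-PA5 was lost without T47D-PA5 replicate 2 or 3 or without T47D-PA6 replicate 2 or 3, with adjusted p-values of 0.0501, 0.063, 0.0608 and 0.0541 (from 0.00313 to 0.601 over 21 alternatives).

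The other tested TGFA probe lies 8153 bases nearer the 3′ end of the gene, from 70675319 to 70675378 on hg19, and did not show the rise. Its signal was 22.6, 32.0 and 35.8 in T47D-VC1, 20.2, 25.8 and 26.6 in T47D-PA5 and 8.87, 32.7 and 33.0 in T47D-PA6, where replicate 1 was not well above background. The lines overlapped, and the log2 fold change of T47D-PA6 over T47D-VC1 was -0.48 with a 95% interval of -1.54 to 0.59 (adjusted p = 0.565). It was -1.35 on slide 1, which held the array not well above background, and -0.12 on slide 3. Over T47D-PA5 it was -1.19 on slide 1 and 0.30 on slide 3. With the mean of both probes as the value of the gene, the log2 fold change of TGFA was 0.12 over T47D-VC1 (adjusted p = 0.78) and 0.23 over T47D-PA5 (adjusted p = 0.601). These means take in the T47D-PA6 replicate 1 spot of the second probe, and no mean without it is given. The call was thus made by the brighter probe, and not by the other probe or by this mean.

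By the rule for genes with the most similar pattern, the uncharacterised LOC200830, the beta tubulin gene TUBB2B and HRK, which encodes an activator of cell death, followed TGFA most closely over the 9 arrays, with Pearson correlations of 0.99, 0.98 and 0.98. The arrays share 3 lines and 3 slides, so these values describe the pattern only. Their log2 fold changes of T47D-PA6 over T47D-VC1 were 1.08, 2.44 and 1.99, and a difference in the direction of TGFA follows from how they were picked.

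**Figure D2:**
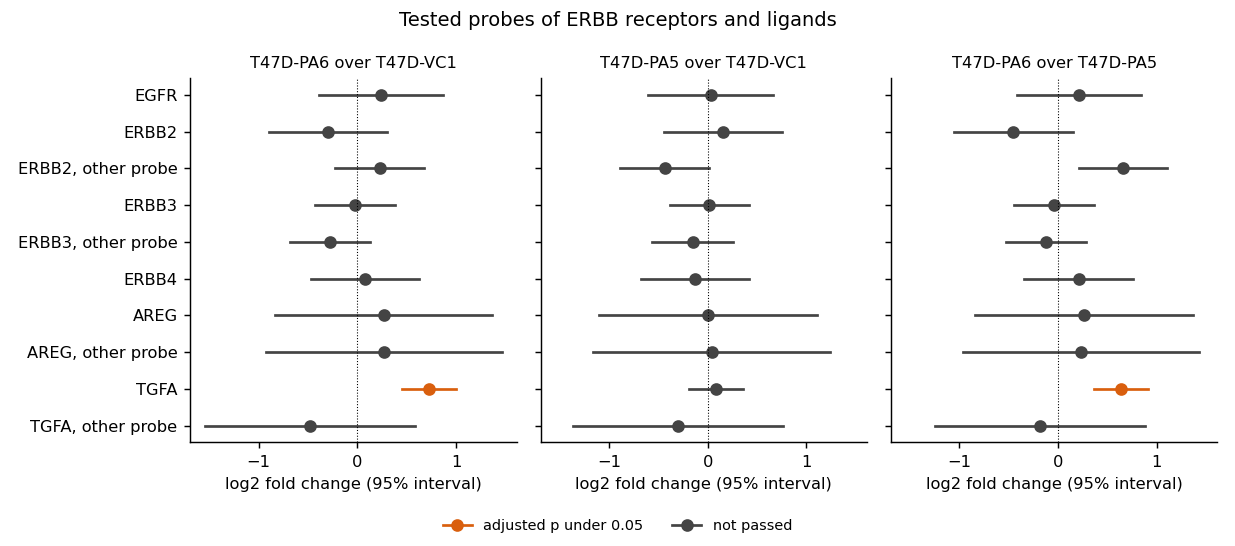
Log2 fold changes of the 10 tested ERBB probes in each comparison, with 95% intervals from limma; orange marks an adjusted p under 0.05. TGFA passes at 0.73 and 0.64, its other probe does not, and the intervals of AREG are among the widest, with the slide 1 arrays low.

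AREG, the amphiregulin gene, was read by 2 probes on chromosome 4 of hg19, from 75320518 to 75320577 and from 75318293 to 75318352, both on the plus strand. The second is shown because both moved together and it lies in the end of the coding sequence, with 1 frame free of stop codons and no base marked.
AREG probe: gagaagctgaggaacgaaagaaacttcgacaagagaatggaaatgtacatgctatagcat
The first probe gave 2600, 7050 and 7560 in T47D-VC1, 3710, 6070 and 6180 in T47D-PA5 and 3460, 8700 and 8020 in T47D-PA6. Replicate 1 was the lowest of its line in all 3 lines, and the lines overlapped. The probe shown gave 866, 2850 and 2810, then 1450, 2370 and 2180, then 1230, 3210 and 3070, in the same order of lines and replicates. It followed the same division.

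The difference between lines in AREG was small beside this division. The log2 fold change of T47D-PA6 over T47D-VC1 was 0.27 (95% interval -0.84 to 1.37, adjusted p = 0.774), and it was 0.41 on slide 1 and 0.14 on slide 3. Over T47D-PA5 it was 0.26 (adjusted p = 0.787), with -0.10 on slide 1 and 0.44 on slide 3, so its sign differed between the slides. For T47D-PA5 over T47D-VC1 the value was 0.002, with 0.51 on slide 1, -0.22 on slide 2 and -0.29 on slide 3. The lowest T47D-PA6 array and the lowest T47D-PA5 array were both replicate 1, and with replicates 2 and 3 alone the value over T47D-PA5 was 0.45 (adjusted p = 0.0126, from 0.0126 to 0.988 over 21 alternatives). That fit has 2 arrays per line, with both T47D-PA6 arrays on slide 3, and called 8996 of all probes in this comparison. A comparison of replicates 2 and 3 with replicate 1, with the line as a term in the fit, was added because AREG was seen to be low on replicate 1, so it describes AREG and does not test it. The later arrays were 2.24-fold higher by the first probe (log2 1.16, standard error 0.14) and 2.35-fold by the probe shown. Of all probes tested, 12.2% passed in that comparison. The later arrays differ from the earlier in slide and scan run, and in whatever else separated the replicates, and these cannot be told apart.

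**Figure D3:**
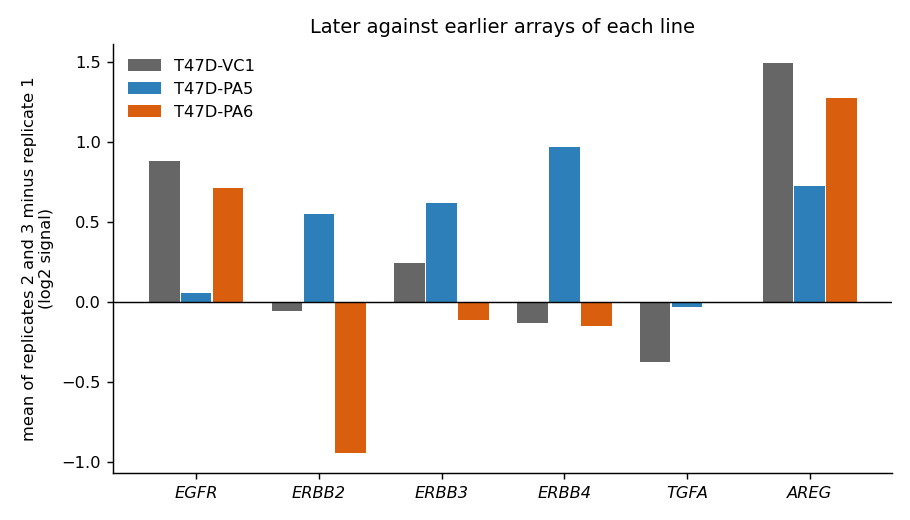
Mean log2 signal of replicates 2 and 3 minus that of replicate 1 in each line, for the 6 genes tested. AREG is above 0 in all 3 lines, by 1.49 (T47D-VC1), 0.72 (T47D-PA5) and 1.27 (T47D-PA6), while ERBB2 is at -0.95 in T47D-PA6 and 0.55 in T47D-PA5.

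EREG, the epiregulin gene, lies next to AREG on chromosome 4, and its probe (75254009 to 75254068 on hg19) gave 2.58, 2.64 and 3.10 in T47D-VC1, 2.61, 14.2 and 12.3 in T47D-PA5 and 2.60, 56.8 and 48.1 in T47D-PA6. No T47D-VC1 array and no replicate 1 was well above background, while replicates 2 and 3 of T47D-PA5 and of T47D-PA6 were. It was therefore not among the probes tested. Taken over all 3 arrays, T47D-PA6 was at least 1.54-fold above T47D-VC1, computed against the lowest signal well above background on the T47D-VC1 arrays. For T47D-PA5 no such bound above 1 could be given over all 3 arrays.

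Among the later arrays, EREG stood at a mean of 52.2 in T47D-PA6, at least 4.19-fold above T47D-VC1, and at 13.3 in T47D-PA5. For T47D-PA5 the bound on these arrays was at least 1.06-fold above T47D-VC1. With replicates 2 and 3 alone, the log2 fold change of T47D-PA6 over T47D-PA5, both well above background there, was 1.98 (2 arrays each). EREG entered that fit only because its low replicate 1 arrays were left out, so its call there is not read as a result. That fit called 8996 of all probes in this comparison. With all 9 arrays and no filter on dim probes the log2 fold change of EREG in T47D-PA6 over T47D-PA5 was 1.32 (adjusted p = 0.716). Against T47D-VC1 the adjusted p was 0.365 for T47D-PA6 and 0.788 for T47D-PA5. On slide 1 the 3 lines could not be told from background.

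Replicate 1 was low for AREG and BTC in every line, and for EREG in T47D-PA5 and T47D-PA6. Of these, the 250 bases before the starts of the neighbours AREG and EREG are given from RefSeq on GRCh38.p14, plus strand. They are chr4:74444886-74445135 for AREG and chr4:74364895-74365144 for EREG. Capitals mark the cyclic AMP response element TGACGTCA.
AREG promoter: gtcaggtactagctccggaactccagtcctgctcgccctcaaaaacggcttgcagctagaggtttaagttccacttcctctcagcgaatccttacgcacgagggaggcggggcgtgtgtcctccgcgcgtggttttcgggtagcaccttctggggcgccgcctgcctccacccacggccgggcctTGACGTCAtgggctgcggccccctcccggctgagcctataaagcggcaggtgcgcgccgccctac
EREG promoter: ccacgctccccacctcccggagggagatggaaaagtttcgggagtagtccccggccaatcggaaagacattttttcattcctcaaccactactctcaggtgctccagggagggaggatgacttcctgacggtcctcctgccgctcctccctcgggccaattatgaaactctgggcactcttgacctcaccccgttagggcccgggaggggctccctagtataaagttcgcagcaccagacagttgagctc
Of the 9 genes, 7 had an entry, all but ERBB3 and NRG1. Both strands were searched for TGACGTCA, for the AP-1 site TGANTCA, for the gamma-activated site TTCNNNGAA and for GAAANNGAA, the core of the interferon-stimulated response element. TGACGTCA was found in 1.65% of 35116 windows of this length and, among these genes, in AREG, where it starts 65 bases before the start of the gene. TGANTCA was found in 6.57% of windows and among these genes in EGFR and ERBB2, TTCNNNGAA in 6.57% of windows and in none of these genes, and GAAANNGAA in 6.88% of windows and in ERBB4. None of these is in the sequences shown, and the match in AREG overlaps no other. A match describes the letters only.

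BTC, the betacellulin gene, gave 6.55, 25.1 and 20.2 in T47D-VC1, 11.1, 23.9 and 18.2 in T47D-PA5 and 7.5, 11.3 and 14.8 in T47D-PA6. In each line replicates 2 and 3 were well above background and replicate 1 was not, so BTC was not tested with all arrays. With no filter on dim probes and all arrays, the log2 fold change of T47D-PA6 over T47D-VC1 was -0.47 (adjusted p = 0.814). It was -1.059 without T47D-VC1 replicate 1 (0.111), -0.47 without T47D-PA5 replicate 1 (0.599) and -0.20 without T47D-PA6 replicate 1 (0.854), and with replicates 2 and 3 alone it was -0.80 (0.0444). In each fit without 1 array BTC entered the test only because the low array of that line was the one removed. With replicates 2 and 3 alone it entered because the low arrays of all lines were removed. Those values are therefore not read as results. The 2 probes of NRG1, the neuregulin of ERBB3 and ERBB4, were not well above background except for 1 probe on 1 array. That probe stood at 60.3 on T47D-PA6 replicate 1 and at 2.46 to 7.39 on the other 8 arrays, and the other NRG1 probe stood at 5.95 on the same array. NRG1 is thus not measured above background in T47D-VC1 or T47D-PA5, and on a single array only in T47D-PA6.

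The 4 receptors did not pass the test in any comparison. ERBB2, on chromosome 17, was read from a probe printed 10 times on each array (37884829 to 37884888 on hg19, plus strand). It gave 4350, 4310 and 4060 in T47D-VC1, 3670, 5430 and 5300 in T47D-PA5 and 5350, 2720 and 2840 in T47D-PA6. T47D-PA6 replicate 1 was above all T47D-VC1 arrays, and replicates 2 and 3 were below all other arrays. Against T47D-VC1 its log2 fold change was -0.29 (95% interval -0.89 to 0.30, adjusted p = 0.524), with 0.30 on slide 1, -0.55 on slide 3 and -0.20 with the slide as a block (adjusted p = 0.694).

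Against T47D-PA5 the log2 fold change of ERBB2 in T47D-PA6 was -0.45 (adjusted p = 0.332), with 0.54 on slide 1 and -0.93 on slide 3, so in both comparisons the sign turned between the slides. With replicates 2 and 3 alone it was -0.59 over T47D-VC1 (adjusted p = 0.00442, from 0.00442 to 0.927 over 21 alternatives). Against T47D-PA5 it was -0.95 (adjusted p = 0.0015, from 0.0015 to 0.762), and T47D-PA5 was above T47D-VC1 by 0.36 (adjusted p = 0.0292, from 0.0292 to 0.978). That fit has 2 arrays per line, both from slide 3 for T47D-PA6 and from slides 2 and 3 for the other lines. It called 9297, 8996 and 4863 of all probes in these 3 comparisons. Without T47D-PA6 replicate 1 the log2 fold change of ERBB2 in T47D-PA6 was -0.61 over T47D-VC1 (adjusted p = 0.0616), and against T47D-PA5 it was -0.77 (adjusted p = 0.0288). The other ERBB2 probe, 33693 bases nearer the 5′ end, gave 94.7, 152 and 120 in T47D-VC1, 74.1, 93.5 and 101 in T47D-PA5 and 126, 137 and 161 in T47D-PA6. Every T47D-PA6 array lay above every T47D-PA5 array, by 0.66 on the log2 scale (95% interval 0.21 to 1.11), with an adjusted p of 0.0713 that does not pass. The probes thus differ in sign, and the mean of both gave 0.105 over T47D-PA5 (adjusted p = 0.762).

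EGFR, on chromosome 7 (55274841 to 55274900), gave 80.4, 143 and 154 in T47D-VC1, 120, 117 and 134 in T47D-PA5 and 103, 161 and 177 in T47D-PA6. The lines overlapped, and replicate 1 was lowest in T47D-VC1 and T47D-PA6. The log2 fold change of T47D-PA6 was 0.24 over T47D-VC1 (95% interval -0.39 to 0.87, adjusted p = 0.627), 0.36 on slide 1 and 0.13 on slide 3. Over T47D-PA5 it was 0.21 (adjusted p = 0.694), with -0.225 on slide 1 and 0.34 on slide 3, so the sign turned between the slides. With replicates 2 and 3 alone the log2 fold change of EGFR in T47D-PA6 over T47D-PA5 was 0.43 (adjusted p = 0.0301, from 0.0301 to 0.939 over 21 alternatives). That fit has 2 arrays per line and called 8996 of all probes in this comparison. Of the other 2 EGFR probes, each was well above background on 1 array only.

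ERBB3, on chromosome 12 (56496160 to 56496219), ranged from 2580 to 4070 over the 9 arrays, and both ends of this range were T47D-PA5 arrays. The mean signal of T47D-VC1 was 3380 (SD 0.15, n = 3), that of T47D-PA5 was 3430 (SD 0.36, n = 3) and that of T47D-PA6 was 3340 (SD 0.09, n = 3). The log2 fold change of T47D-PA6 over T47D-VC1 was -0.02 by this probe, with a 95% interval of -0.42 to 0.39, and its sign turned between slide 1 (0.21) and slide 3 (-0.195). A second tested probe of ERBB3 gave -0.27, with an interval of -0.68 to 0.13 (adjusted p = 0.371).

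ERBB4, on chromosome 2 (212240515 to 212240574), gave 1760, 1550 and 1660 in T47D-VC1, 969, 1990 and 1810 in T47D-PA5 and 1870, 1680 and 1700 in T47D-PA6. T47D-PA5 replicate 1 was the lowest array and T47D-PA5 replicate 2 the highest. Its log2 fold change against T47D-VC1 was 0.08 in T47D-PA6 (95% interval -0.47 to 0.63) and -0.13 in T47D-PA5 (95% interval -0.68 to 0.42), the latter with -0.86 on slide 1, 0.35 on slide 2 and 0.12 on slide 3. Against T47D-PA5 it was 0.21 in T47D-PA6 (adjusted p = 0.653), with 0.95 on slide 1 and -0.095 on slide 3. In T47D-PA5 over T47D-VC1, EGFR was at 0.58, -0.29 and -0.205 on slides 1, 2 and 3. On the same slides ERBB2 was at -0.25, 0.33 and 0.38, and ERBB3 at -0.23, 0.245 and 0.04. In that comparison the sign on slide 1 thus differed from that on slides 2 and 3 for each receptor. With all 9 arrays, no difference between lines in the 4 receptors passed the test, while replicates 2 and 3 alone gave the calls stated for ERBB2 and EGFR.

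**Figure D4:**
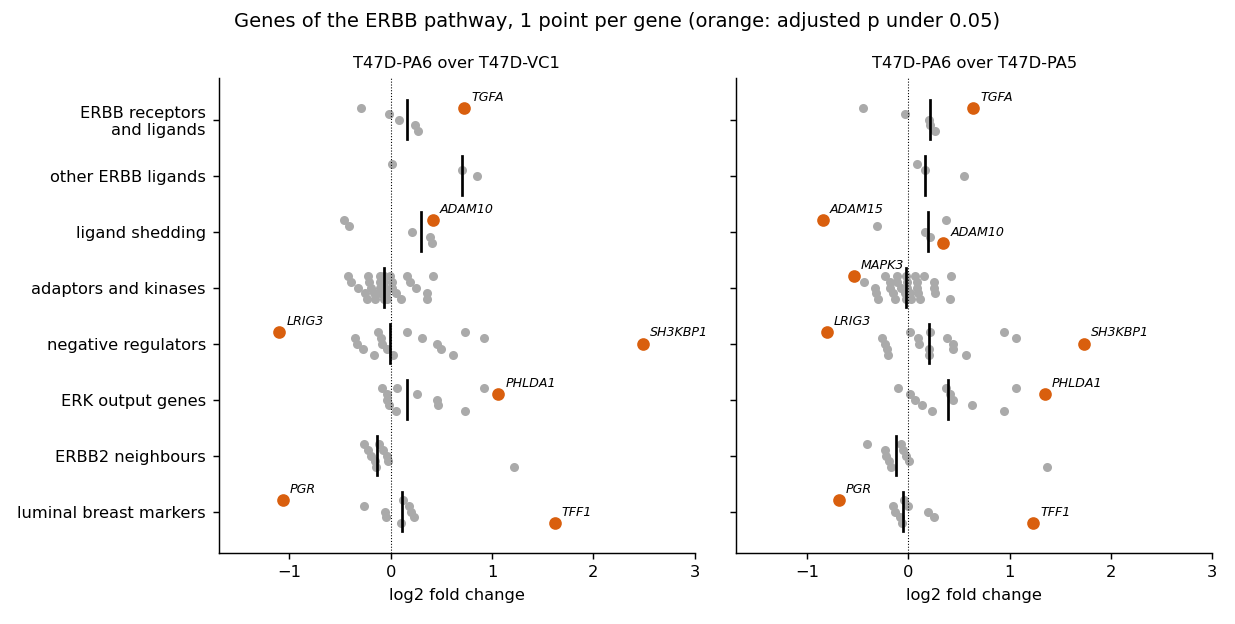
Log2 fold changes of the tested genes of each list, 1 point per gene, with the median of the list as a bar; orange marks an adjusted p under 0.05. SH3KBP1 lies at 2.49 and 1.74.

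Among the 6 other ERBB ligands, 3 were tested, and limma called 0 of them in each comparison, while 2, 1 and 0 had an unadjusted p under 0.05 in T47D-PA6 over T47D-VC1, T47D-PA5 over T47D-VC1 and T47D-PA6 over T47D-PA5 (where limma called 10.6%, 1.62% and 9.91% of all probes), and the unpaired test called 0 in each. Of all 26171 probes tested, 7064, 4084 and 6585 had an unadjusted p under 0.05 in these comparisons, and every count at that level is to be read against them. EPGN, NRG2 and NRG3 stayed near background on all 9 arrays. HBEGF, a ligand of EGFR and ERBB4, gave 20.4, 21.9 and 26.0 in T47D-VC1, 40.8, 22.7 and 23.6 in T47D-PA5 and 40.8, 32.3 and 51.6 in T47D-PA6. All T47D-PA6 arrays were above all T47D-VC1 arrays, and the log2 fold change of 0.85 had an adjusted p of 0.068. It passed without T47D-PA5 replicate 1 (0.0284) and with arrays scaled to their 75th percentile (0.0408), in a range of 0.0284 to 0.203 over 21 alternatives. Over these its log2 fold change ranged from 0.272 to 1.017. NRG4, a ligand of ERBB4, gave 23.8, 32.0 and 40.1 in T47D-VC1, 38.6, 58.0 and 49.7 in T47D-PA5 and 44.1, 51.9 and 57.8 in T47D-PA6. Its log2 fold change over T47D-VC1 was 0.71 in T47D-PA6 (adjusted p = 0.0781, from 0.0217 to 0.218 over 21 alternatives). It passed in 4 of these, among them the fit with slide as a block (0.0311), and its log2 fold change ranged from 0.276 to 0.886. EGF was at 0.01 (adjusted p = 0.981).

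In T47D-PA5 over T47D-VC1 limma called 0 genes of the lists of ligand shedding, adaptors, negative regulators, ERK output and luminal markers that follow, against 1.62% of all probes. In these lists 1, 1, 3, 0 and 2 had an unadjusted p under 0.05, against 4084 of all 26171 probes, and the unpaired test called 0 in each. With replicates 2 and 3 alone limma called 2, 1, 5, 5 and 4 of them, beside 4863 of all probes.

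All 6 genes of ligand shedding were tested, and 1 was called over T47D-VC1 and 2 over T47D-PA5, against 10.6% and 9.91% of all probes. At an unadjusted p under 0.05 there were 4 and 2, against 7064 and 6585 of all 26171 probes. ADAM10, the protease that releases EGF and BTC, rose in T47D-PA6, the only one called over T47D-VC1. Its signal was 741, 721 and 756 in T47D-VC1, 777, 780 and 770 in T47D-PA5 and 963, 1000 and 985 in T47D-PA6. The T47D-PA6 arrays were above all others, with a log2 fold change of 0.41 against T47D-VC1 (adjusted p = 0.0188, standard error 0.08). Without T47D-VC1 replicate 2 or 3 or T47D-PA6 replicate 2 or 3 the adjusted p was 0.0678, 0.0674, 0.0783 and 0.0772, and with arrays scaled to their 75th percentile it was 0.0513. The rise against T47D-PA5 was 0.34 (adjusted p = 0.0368). It was lost in the fit with slide as a block (0.0613), with the 75th percentile scaling (0.0987), with the mean of probes (0.131) and without any single T47D-PA5 array, T47D-PA6 replicate 2 or 3, or T47D-VC1 replicate 2 or 3 (0.0614 to 0.138), in a range of 0.0104 to 0.138 over 21 alternatives. ADAM15, another membrane protease, fell by 0.84 against T47D-PA5 (adjusted p = 0.0082, and 0.0642 by the unpaired test). Against T47D-VC1 its log2 fold change was -0.46 (adjusted p = 0.0667), which passed in 5 of 21 alternatives (0.0048 to 0.206), without T47D-PA6 replicate 1 among them (0.0174). The median of the list was 0.30 over T47D-VC1, 0.05 in T47D-PA5 over T47D-VC1 and 0.19 over T47D-PA5, and 0 were called in T47D-PA5 over T47D-VC1.

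Of 32 adaptors and kinases downstream of the receptors, 31 were tested. Limma called 0 in T47D-PA6 over T47D-VC1, 0 in T47D-PA5 over T47D-VC1 and 1 in T47D-PA6 over T47D-PA5, against 10.6%, 1.62% and 9.91% of all probes, with medians of -0.07, -0.02 and -0.02. Of the 31, 6, 1 and 7 had an unadjusted p under 0.05, against 7064, 4084 and 6585 of all 26171 probes, and the unpaired test called 0, 0 and 2. The 1 gene was MAPK3, which encodes ERK1. It was at 449, 425 and 440 in T47D-PA6 and at 630, 646 and 631 in T47D-PA5, and it fell by 0.54 (adjusted p = 0.0315). The call was lost in the fit with slide as a block (0.0564), with no filter on dim probes (0.057) and without any single T47D-PA5 array, T47D-PA6 replicate 2 or 3, or T47D-VC1 replicate 3 (0.0503 to 0.113), in a range of 0.00392 to 0.113 over 21 alternatives. Without T47D-VC1 replicate 1 MAPK3 also passed against T47D-VC1 (0.0107).

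All 18 negative regulators were tested, and 1 rose and 1 fell in T47D-PA6 in both comparisons, against 10.6% and 9.91% of all probes called, with 0 called in T47D-PA5 over T47D-VC1. An unadjusted p under 0.05 was found for 4 and 6 of them, against 7064 and 6585 of all 26171 probes. The fit with slide as a block called 3 and 3, beside 2982 and 2496 of all probes. A replicate block called 3 and 4, beside 3404 and 3160. SH3KBP1 encodes an adaptor that joins CBL to endocytic proteins in the removal of EGFR from the membrane. Its signal was 49.1, 45.7 and 38.5 in T47D-VC1, 94.1, 66.7 and 65.5 in T47D-PA5 and 229, 249 and 266 in T47D-PA6. No 2 lines overlapped, and T47D-PA6 was 5.60-fold above T47D-VC1 (log2 2.49, adjusted p = 0.000359, standard error 0.16). Against T47D-PA5 the ratio was 3.33 (log2 1.74, adjusted p = 0.00151), and both calls passed in 21 of 21 alternatives, with log2 fold changes of 1.496 to 2.62 over T47D-VC1 and 1.108 to 1.96 over T47D-PA5, both lowest with normexp. T47D-PA5 over T47D-VC1, at 0.75, did not pass (adjusted p = 0.0668). LRIG3 encodes a membrane protein, and its effect on ERBB receptors was not tested here. It gave 501, 674 and 695 in T47D-VC1, 363, 592 and 592 in T47D-PA5 and 272, 275 and 319 in T47D-PA6. All T47D-PA6 arrays were below all others. It fell by 1.099 against T47D-VC1 (adjusted p = 0.0162, standard error 0.21), and this call was lost without T47D-VC1 replicate 2 or 3 or T47D-PA6 replicate 2 (0.0603, 0.0696 and 0.0607), with no filter on dim probes (0.0522) and by the unpaired test (0.0686). Against T47D-PA5 it fell by 0.80 (adjusted p = 0.0495), a call that passed in 10 of 21 alternatives and was lost without T47D-PA5 replicate 2 or 3, any T47D-PA6 array, or T47D-VC1 replicate 2 or 3 (0.0719 to 0.163). The medians of the list in the 3 comparisons, T47D-PA6 over T47D-VC1, T47D-PA5 over T47D-VC1 and T47D-PA6 over T47D-PA5, were -0.01, -0.08 and 0.21.

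Of 16 ERK output genes, whose transcription follows ERK activity, 12 were tested. DUSP4, DUSP6, SPRY2 and SPRY4 are in this list and among the negative regulators, so the 2 lists are not separate. PHLDA1 was called over T47D-VC1 and over T47D-PA5, against 10.6% and 9.91% of all probes, and 0 were called in T47D-PA5 over T47D-VC1. Over T47D-VC1 and over T47D-PA5, 1 and 4 of the list had an unadjusted p under 0.05, against 7064 and 6585 of all 26171 probes. The fit with slide as a block called 2 of the list over T47D-VC1 and 2 over T47D-PA5, beside 2982 and 2496 of all probes. Without T47D-VC1 replicate 1 the counts were 2 and 4, beside 3285 and 3471 of all probes. The signal of PHLDA1 was 204, 182 and 154 in T47D-VC1, 142, 167 and 133 in T47D-PA5 and 346, 370 and 407 in T47D-PA6. The T47D-PA6 arrays lay above all others, with log2 fold changes of 1.06 against T47D-VC1 (adjusted p = 0.00348, and 0.0527 by the unpaired test) and 1.35 against T47D-PA5 (adjusted p = 0.00223). The medians of the list were 0.16 over T47D-VC1, -0.15 in T47D-PA5 over T47D-VC1 and 0.39 over T47D-PA5.

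Among the 10 luminal markers, PGR and TFF1, both estrogen-induced, changed in T47D-PA6, against 10.6% and 9.91% of all probes called over T47D-VC1 and over T47D-PA5, and 0 were called in T47D-PA5 over T47D-VC1. With an unadjusted p under 0.05 there were 3 and 2, against 7064 and 6585 of all 26171 probes. PGR, the progesterone receptor, fell by 1.07 against T47D-VC1 (adjusted p = 0.00681). Against T47D-PA5 it fell by 0.69 (adjusted p = 0.0366), a call lost in the fit with slide as a block (0.0876), by the unpaired test (0.142), with no filter on dim probes (0.0895), with a replicate block (0.0606) and without replicate 2 or 3 of any line (0.0589 to 0.131), in a range of 0.00117 to 0.142 over 21 alternatives. TFF1, a secreted trefoil peptide, was higher by 1.62 (adjusted p = 0.00115) and 1.23 (adjusted p = 0.00455, and 0.0616 by the unpaired test). The medians of the luminal list were 0.11, 0.01 and -0.05 in the 3 comparisons, and those of the 3 tested markers of other cell types were -0.17, 0.04 and -0.21.

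Among the markers of other cell types, VIM encodes the intermediate filament of mesenchymal cells. It stood at 34.8, 91.3 and 96.9 in T47D-PA6, 22.9, 25.8 and 26.2 in T47D-PA5 and 5.84, 6.47 and 6.83 in T47D-VC1, where all 3 arrays were near background. No lines overlapped. VIM entered the test only through T47D-PA5 and T47D-PA6, so no test against T47D-VC1 is read, and it leaves the test when all arrays have to be well above background. T47D-PA6 was above T47D-PA5 by 1.44 on the log2 scale (adjusted p = 0.0344), a call lost without any single T47D-PA5 array, T47D-PA6 replicate 2 or 3, or T47D-VC1 replicate 2 or 3 (0.058 to 0.122), with no filter on dim probes (0.111) and by the unpaired test (0.187). COL1A1, a fibroblast collagen, fell by 0.50 in T47D-PA6 against T47D-VC1 (adjusted p = 0.02), a call lost without T47D-PA6 replicate 2 (0.0819) or T47D-VC1 replicate 3 (0.0812) and by the unpaired test (0.065). The part of these markers in the ERBB results was not tested.

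The list counts moved with the alternatives. In T47D-PA6 over T47D-VC1 limma and the unpaired test called 0 to 4 shedding genes, 0 to 13 adaptors, 1 to 10 negative regulators, 0 to 7 ERK output genes and 2 to 6 luminal markers. Over T47D-PA5 these ranges were 1 to 3, 0 to 11, 1 to 11, 1 to 6 and 0 to 5. In T47D-PA5 over T47D-VC1 they were 0 to 2, 0 to 1, 0 to 5, 0 to 5 and 0 to 4. The highest count of each list came with replicates 2 and 3 alone, where 9297, 8996 and 4863 of all probes were called in these comparisons.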

How the data were processed

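Total RNA of 9 samples, 3 per line, was labeled with a single color and hybridised to human gene expression arrays. The authors deposited the intensity of each spot, background-subtracted by Agilent Feature Extraction and not normalized between arrays. The file headers name version 10.7.1.1 and the labels 9.5.1.1. The quantile-normalized intensity values that the authors also deposited, with a median of 9.06 on each array, correlated at 1 on the log2 scale with the values computed here and were used as an alternative. The steps of the authors before deposit were not repeated.

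Here 46 to 117 spots per array marked as outliers were left out, the spots of a probe were averaged as log2 values, and arrays were quantile-normalized, as the methods name. No array had saturated spots. The lowest signal well above background was 9.59 to 15.2. Probe names were updated from RefSeq (GRCh38.p14), for 31127 probes through the symbol, for 3343 through the transcript and for 496 through a synonym, and 23235 kept their given name.

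Comparisons used a single two-sided limma fit of all 9 arrays (lmFit, eBayes, limma 3.58.1 in R 4.3.3), which leaves 6 residual degrees of freedom. Benjamini-Hochberg adjustment covered the 26171 probes tested, at a threshold of 0.05. The smallest two-sided p of an exact permutation of 3 against 3 arrays is 0.1, and the number of arrays limits the precision. A line not well above background on any array has only a bound: the mean of the brighter line was set against the dim line, with each of its arrays at no less than the lowest signal there that was well above background. The fit was tested on simulated data, where it missed many of the smaller changes put in. Recovery of the larger ones fell short of the target first set, which was then replaced, so a gene that did not pass may still differ. Tables were read with data.table (version 1.17.8) and figures drawn with Python 3.11.15 and matplotlib 3.10.9.

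The genes named are the 9 members, the other ERBB ligands, for each list at most the 4 called genes with the largest change in a comparison, and the 3 genes most correlated with a called member. The members and lists were chosen with earlier results of these data known. The alternatives were a 75th percentile shift, normexp (offset 50), the normalized values of the authors, testing every probe or only those well above background on all arrays, a slide or replicate block, each array left out, replicates 2 and 3 alone, the unpaired test named in the methods, 1 probe or the mean of probes per gene, and an intensity trend in the prior variance.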

Additional observations from a re-analysis of the deposited data

How the results depend on the processing

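TGFA was above T47D-VC1 and above T47D-PA5 in T47D-PA6 under all 21 alternatives, and passed in 19 and 16 of them. The unpaired test named in the methods gave 0.73 over T47D-VC1 (adjusted p = 0.0807), and the mean of the probes of a gene gave 0.12 and 0.23. That mean takes in the T47D-PA6 replicate 1 spot of the second TGFA probe, which was not well above background. Without each array in turn TGFA ranged from 0.655 to 0.852 over T47D-VC1 and from 0.616 to 0.657 over T47D-PA5, and the leave-one-out counts of member genes called were 1 to 2, 0 to 0 and 0 to 3 in T47D-PA6 over T47D-VC1, T47D-PA5 over T47D-VC1 and T47D-PA6 over T47D-PA5. The counts above 1 came without T47D-PA6 replicate 1, where ERBB2 passed over T47D-PA5. They also hold EREG, which entered the test there only because its low T47D-PA6 array was the one removed, so its calls are not read as results. The counts of members fell to 0 with the unpaired test in T47D-PA6 over T47D-VC1 and with the mean of probes in T47D-PA6 over T47D-VC1 and over T47D-PA5. Replicates 2 and 3 alone gave 4, 2 and 5 members, beside 9297, 4863 and 8996 of all probes. Each of these counts holds EREG, which is not well above background in T47D-VC1, and the first also holds BTC. Both genes entered that fit only because their low replicate 1 arrays were left out, so their calls are not read as results. The cause was not tested.

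In the same order of comparisons, 2762, 424 and 2593 probes were called. The counts were 1787, 246 and 1690 with no filter, 644, 38 and 965 with the unpaired test, and 9297, 4863 and 8996 with replicates 2 and 3 alone. T47D-PA5 over T47D-VC1 had 722 with the slide as a block and 637 with an intensity trend. Without each array in turn they were 1033 to 3628, 128 to 765 and 994 to 3894, lowest without T47D-PA6 replicate 3, T47D-PA5 replicate 3 and T47D-PA6 replicate 3, and highest without T47D-PA6 replicate 1. The cause was not tested.

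Signs turned for genes that did not pass, none of the turned values passed, and the cause was not tested. In T47D-PA5 over T47D-VC1, EGFR was -0.003 with normexp, and with replicates 2 and 3 alone EGFR was -0.245, ERBB4 0.24, AREG -0.25 and HBEGF -0.042. In that comparison the mean of probes gave ERBB2 -0.14, ERBB3 -0.068 and TGFA -0.11. ERBB3 was 0.011 over T47D-VC1 with the slide as a block, EGF -0.059 over T47D-VC1 and ERBB4 -0.16 over T47D-PA5 with replicates 2 and 3 alone, and ERBB2 0.105 over T47D-PA5 with the mean of probes, all in T47D-PA6. Without each array in turn, T47D-PA6 over T47D-VC1 ranged from -0.052 to 0.48 for EGFR, -0.23 to 0.69 for AREG, -0.18 to 0.16 for EGF and -0.10 to 0.05 for ERBB3. T47D-PA5 over T47D-VC1 ranged from -0.26 to 0.21 for EGFR, -0.11 to 0.22 for ERBB3, -0.33 to 0.19 for ERBB4, -0.495 to 0.28 for AREG and -0.35 to 0.016 for EGF. T47D-PA6 over T47D-PA5 ranged from -0.24 to 0.087 for ERBB3, -0.11 to 0.40 for ERBB4, -0.004 to 0.29 for EGF and -0.076 to 0.22 for NRG4.

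The main fit did not take replicate numbers as pairs. Deviations of same-numbered arrays from the mean of their line correlated at 0.08 to 0.33, highest for replicate 1 in each pair of lines. Those of replicates 2 and 3 of different lines correlated at 0.09 to 0.23. With a replicate block 3404, 595 and 3160 probes were called, and 1, 0 and 1 member genes. This block called 3 negative regulators, 1 adaptor and 2 ERK output genes in T47D-PA6 over T47D-VC1, and 4, 2 and 3 over T47D-PA5. EREG, BTC, NRG1 and the second TGFA probe lie near background, and HBEGF and NRG4 are dim on every array, which limits what their signals can show.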

Other observations

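ERBB2 lies on chromosome 17 among genes that are often amplified with it in breast tumors. Of 12 such neighbours, 10 were tested, and limma called 0 in T47D-PA6 over T47D-VC1, 0 in T47D-PA5 over T47D-VC1 and 0 in T47D-PA6 over T47D-PA5 (against 10.6%, 1.62% and 9.91% of all probes), while 0, 0 and 2 had an unadjusted p under 0.05 (against 7064, 4084 and 6585 of all 26171 probes) and the unpaired test called 0 in each, with medians of -0.13, -0.03 and -0.12 against -0.05, -0.03 and -0.01 over all probes tested. Of the 10, 1 had a log2 fold change above 0 in T47D-PA6 over T47D-VC1, against 11367 of all 26171 probes tested. It was PPP1R1B at 1.22 (limma adjusted p = 0.227), named after its values were seen. With replicates 2 and 3 alone, 2, 0 and 6 of the neighbours were called in these comparisons, where 9297, 4863 and 8996 of all probes were called. The slide block gave 1, 0 and 1, beside 2982, 722 and 2496 of all probes.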
